A study of Mus musculus with 126 samples.

Results

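The genes described here are Guca2a, Guca2b and Gucy2c, which encode guanylin, uroguanylin and their receptor guanylate cyclase C. They were taken by symbol from the deposited tables of mouse colon RNA, where they are 3 of 24883 rows, each with 1 row in every table. All 3 passed the filter on low values, which kept 11377 rows. Guanylin and uroguanylin are small peptides that intestinal epithelial cells release mainly into the gut lumen. They bind guanylate cyclase C on the apical membrane, which then makes cyclic GMP. Cyclic GMP acts through a membrane-bound kinase to open the chloride channel CFTR and to inhibit the sodium-hydrogen exchanger NHE3, so that salt and water stay in the lumen. Uroguanylin is also known as a natriuretic peptide that links salt in the gut to sodium excretion by the kidney. Guanylin is known as the more abundant peptide of the colon, and uroguanylin as the more abundant one of the small intestine.

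RNA was measured in 7 conditions, each with 18 libraries: 3 were taken every 4 h at 6 times, given as zeitgeber time (ZT, hours since the lights came on). Wild type, Bmal1 knock out and MR knock out mice had free access to normal chow. Bmal1 is a core activator of the circadian clock and MR is the mineralocorticoid receptor, through which aldosterone acts. The knock outs were 8 to 12 weeks old, and no age is attached to the wild type. The Bmal1 deletion is described as specific to the gut. Whether that word also covers the MR deletion is not plain from the text, and the sources used here name neither a Cre driver nor the sex of these mice. The other 4 conditions were 8-week-old male C57BL/6 mice on a low-salt or a high-salt diet, offered by night only or by day only, with light for 12 h of the day. They are called low salt night fed, low salt day fed, high salt night fed and high salt day fed. The labels do not say that each library is a separate animal, so that p-values measure the spread between these samples, which may be partly technical.

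Levels are given as rescaled FPKM, that is, the deposited fragments per kilobase of transcript and per mapped fragment of the library, divided by a scale factor. The scale factor ran from 0.297 to 1.48 and lay under 0.6 in 14 libraries, 9 of Bmal1 knock out and 5 of high salt night fed. Libraries also differed in how long and short transcripts compared. This was measured by a length score, the slope of a library's log2 deviations on log2 transcript length, which is positive where long transcripts were relatively high. Its median was 0.182 in wild type, 0.0218 in MR knock out and -0.145 in Bmal1 knock out. For the feeding groups it was 0.0637 (low salt, night), -0.0268 (low salt, day), -0.0871 (high salt, night) and -0.0160 (high salt, day). Arntl, the gene for BMAL1, was at 2.87 to 6.28 in Bmal1 knock out against 2.25 to 19.2 in wild type, and fell by 0.68 ± 0.09 (SE) on the log2 scale (limma, adjusted p = 1.40e-08). Nr3c2, the gene for MR, was at 1.66 to 5.33 in MR knock out and 7.05 to 23.2 in wild type, with no overlap. Its difference was -2.11 ± 0.15 (adjusted p = 1.71e-14). Each gene was also lower in the other knock out. Nr3c2 was at 3.22 to 13.9 in Bmal1 knock out and fell by 1.25 ± 0.15 (adjusted p = 2.11e-09), a larger fall than that of Arntl there, and Arntl fell by 0.29 ± 0.09 in MR knock out (adjusted p = 0.00567). Epithelial markers were high, with Krt8 at a mean of 2319.9 and Epcam at 505 in wild type. The 5 smooth muscle markers (Myh11, Acta2, Des, Actg2 and Cnn1) summed to at most 1.86 in any library, so that these colon samples carried almost no muscle RNA.

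Guca2a and Guca2b are neighbours on mouse chromosome 4. In build mm10 with GENCODE vM21, Guca2a spans 119637704 to 119639471 on the plus strand (ENSMUSG00000023247.2, 3 exons, 594 bases in its 1 transcript). Guca2b spans 119656607 to 119658954 on the minus strand (ENSMUSG00000032978.14, 3 exons, 697 bases in the longest of 2 transcripts). The genes point towards each other, with 17135 bases between them. Gucy2c lies on chromosome 6 from 136697284 to 136781765 on the minus strand (ENSMUSG00000042638.14), with 27 exons and 3959 bases in the longest of 2 transcripts. The 2 peptide genes therefore have short messages and the receptor a long one, which matters beside the length score. The stretch of 120 bases just before the RefSeq start of each peptide gene is shown because these neighbours moved differently across the conditions below. It is written 5′ to 3′ on the gene's strand from RefSeq (GRCm38.p6), at chr4:119637612-119637731 for Guca2a and chr4:119658946-119659065 for Guca2b, with motif matches in capitals.
Guca2a: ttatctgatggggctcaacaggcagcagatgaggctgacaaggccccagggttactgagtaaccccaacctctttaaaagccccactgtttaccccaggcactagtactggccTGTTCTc
Guca2b: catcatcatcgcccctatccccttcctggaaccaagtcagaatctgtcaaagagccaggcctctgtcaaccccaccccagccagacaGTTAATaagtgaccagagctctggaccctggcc
The capitals in Guca2a mark TGTTCT, a steroid receptor half-site that begins 7 bases before the RefSeq start, and 19.0% of 32851 RefSeq promoter windows of 300 bases hold it on either strand. Those in Guca2b mark GTTAAT, a half-site of the hepatocyte nuclear factor HNF1 that begins 33 bases before the RefSeq start and is in 7.10% of windows. Both RefSeq starts lie inside the GENCODE spans given above, so that the end of each stretch is within the gene there. This includes the Guca2a match. Neither 300-base window (250 bases before to 50 after the start) held CACGTG (the E-box, in 7.15% of windows), TTATGTAA (0.938%) or TTACGTAA (0.119%, both D-boxes), AGGTCA (the half-site of the ROR element, 16.3%) or TTTATG (a CDX motif, 11.9%). Both strands were searched, no match overlapped another, and a match is only a match of letters. The promoter of Gucy2c was not analysed here.

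The messages of the 3 genes differed widely in level per length. Over all libraries Guca2a averaged 2306 rescaled FPKM and ranked 18 among the 11377 tested genes. Gucy2c averaged 51.9 (rank 1197) and Guca2b 42.6 (rank 1413). Within libraries of wild type the median ratio of Guca2a to Guca2b per length was 80.1, and that of Guca2a to Gucy2c was 31.0. In Bmal1 knock out these ratios were 41.3 and 62.7. Without its 9 libraries of low scale factor, which include all of ZT12 and ZT16, they were 71.2 and 37.0, much nearer to wild type. In MR knock out they were 79.8 and 50.9. Across the 4 feeding groups the first ran from 42.02 to 56.0 and the second from 38.1 to 48.8. The scale factor cancels out of a ratio within a library, but the ratios of Bmal1 knock out still moved when its low-scale libraries were left out. A ratio also does not show which of the pair changed.

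Guca2a was at nearly the same mean in 6 of the 7 conditions. Its mean ± SD over 18 libraries was 3093 ± 1297 in MR knock out, 2238 ± 361 in low salt day fed, 2199.8 ± 838 in low salt night fed and 2199.6 ± 434 in wild type. It was 2147 ± 653 in Bmal1 knock out, and on high salt 2142 ± 471 with night and 2123 ± 679 with day feeding. No neighbours in that order differed by more than the larger SD. Guca2b was highest in high salt night fed (50.6 ± 11.3), followed by high salt day fed (47.0 ± 11.7), Bmal1 knock out (46.3 ± 12.3), low salt day fed (45.2 ± 11.2), low salt night fed (42.7 ± 9.79), MR knock out (39.2 ± 8.15) and wild type (27.2 ± 5.38). The gap between MR knock out and wild type was larger than either SD, and the other neighbours lay within theirs. In FPKM as deposited the order of Guca2b was another one, with high salt night fed (43.9) below low salt day fed (53.7), high salt day fed (53.4) and low salt night fed (49.9), and Bmal1 knock out (29.9) below wild type (31.8). Guca2a as deposited was lowest in Bmal1 knock out (1562) and high salt night fed (1922). Rescaled Gucy2c was highest in wild type (65.8 ± 11.3), then high salt day fed (56.3 ± 10.4), low salt night fed (55.2 ± 8.46), MR knock out (53.1 ± 10.4), low salt day fed (51.2 ± 6.34), high salt night fed (44.7 ± 11.3) and Bmal1 knock out (36.9 ± 18.7), with no neighbours farther apart than the larger SD.

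**Figure D1:**
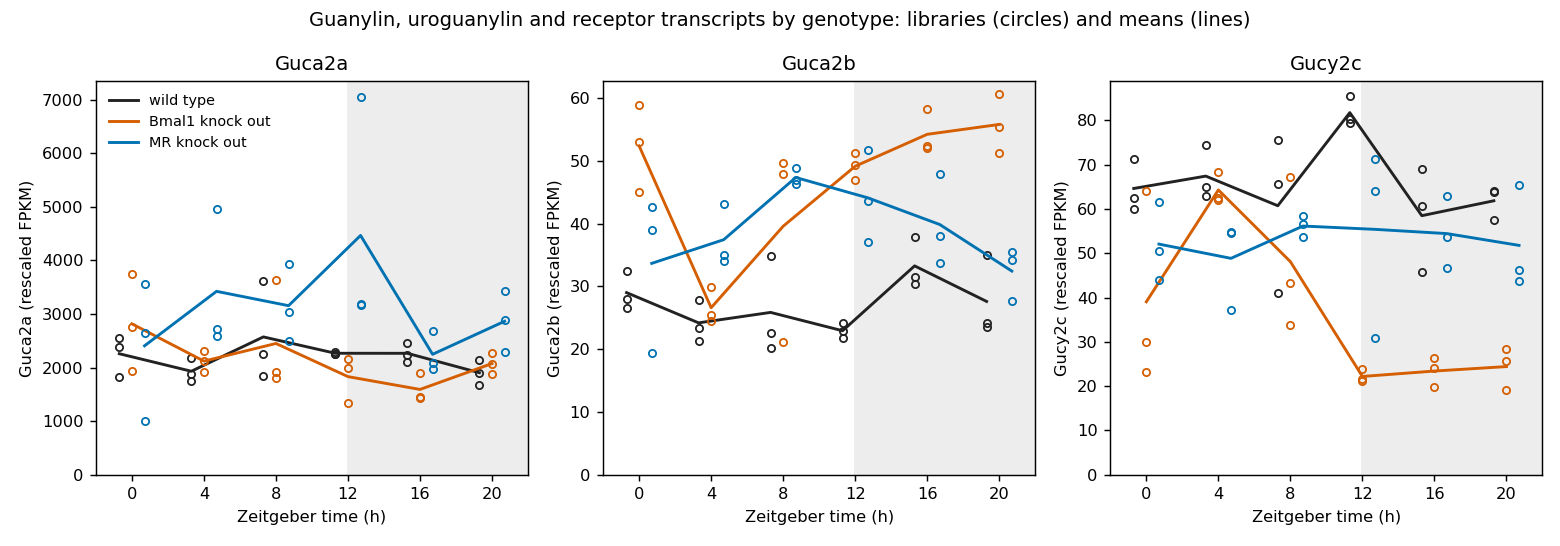
Rescaled FPKM of Guca2a, Guca2b and Gucy2c against zeitgeber time in wild type, Bmal1 knock out and MR knock out, with 1 circle per library, lines through the means of 3 libraries, points of the 3 genotypes shifted sideways for clarity and the dark phase in grey. In Bmal1 knock out, Gucy2c fell from a mean of 64.3 at ZT4 to 22.2 at ZT12, while Guca2b went from 26.6 at ZT4 to 55.8 at ZT20. All Bmal1 knock out libraries at ZT12 had a scale factor under 0.6.

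In wild type, uroguanylin message was at its lowest mean of the 7 conditions in rescaled FPKM, but not in FPKM as deposited. Guca2b was at 20.2 in the lowest, 25.4 in the median and 37.9 in the highest of 18 libraries. Guca2a was at 1677, 2203.5 and 3611, where the highest value was a single library at ZT8. Gucy2c was at 41.1, 64.5 and 85.6, and its 3 libraries at ZT12 (79.5, 80.2 and 85.6) were the highest of the condition. None of the 3 genes had a 24 h rhythm that passed in wild type, where 17.7% of all tested genes did in the fit reported (limma F test on cosine and sine terms, adjusted over all tested genes at a threshold of 0.05). The log2 distance from mean to peak was 0.12 ± 0.13 for Guca2a (adjusted p = 0.830), 0.17 ± 0.09 for Guca2b (0.413) and 0.078 ± 0.11 for Gucy2c (0.886). Other settings called some of these: Guca2b passed with array weights (0.17, adjusted p = 0.00778), with the length score as covariate (0.24, adjusted p = 1.66e-04) and with that score and no low-scale libraries (0.24, adjusted p = 2.86e-04), and Gucy2c with array weights (0.16, adjusted p = 0.0185).

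Averaged over the day, uroguanylin message was higher and receptor message lower in Bmal1 knock out than in wild type, and guanylin message did not differ past the threshold. Guca2b was higher by 0.72 ± 0.09 (log2, SE, n = 18 a group, limma adjusted p = 1.05e-08), that is 64.9%, with a higher mean at 6 of 6 times. Gucy2c fell by 0.96 ± 0.11 (adjusted p = 6.87e-10), or to 0.514 of the wild-type level, with a lower mean at 6 of 6 times. Guca2a differed by -0.067 ± 0.13 (adjusted p = 0.652), with an interval of 2 SE from -0.33 to 0.20. In this comparison 80.3% of all tested genes passed, 31.1% of them upwards and 49.2% downwards as shares of those tested, and the median of all genes was -0.13. A pass by itself therefore says little here. In bulk RNA, fewer cells that make a message and less message per cell cannot be told apart.

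The difference was not the same at all sampled times. At ZT4 the Gucy2c libraries of Bmal1 knock out (62.5, 68.3 and 62.1) overlapped those of wild type (63.0, 64.9 and 74.4). At ZT12 they were at 23.9, 21.1 and 21.5 against 79.5, 80.2 and 85.6, a fall that separated every library. The groups were also separate at ZT16 (19.8, 24.02 and 26.4 against 45.8, 60.7 and 68.96) and at ZT20 (25.6, 28.5 and 19.2 against 57.6, 63.8 and 64.1). All knock out libraries at ZT12 and ZT16 had scale factors under 0.6, and those at ZT4 were at 1.26, 1.39 and 1.39. Scale factor thus went with time of day between ZT4 and both ZT12 and ZT16, but it varied among the libraries of ZT0 and of ZT8. At ZT0 Gucy2c of the knock out was at 30.0, 23.2 and 64.0, with scale factors of 0.665, 0.441 and 1.48. At ZT8 it was at 33.8, 67.3 and 43.3, with scale factors of 0.621, 1.23 and 0.780. Whether Gucy2c in the knock out followed time of day or scale factor was not tested. Gucy2c there had a fitted daily course with an amplitude of 0.75 ± 0.11 and a peak at ZT4.38 (adjusted p = 4.89e-06, 56.7% of all genes called). Its rhythm differed from wild type by 0.74 ± 0.15 (adjusted p = 0.00202), where 31.2% of all genes passed. A rhythm difference is the length of the difference between the cosine and sine terms of 2 conditions.

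Guca2b in Bmal1 knock out overlapped wild type at ZT4 and ZT8 and lay above it at the other times. Its libraries at ZT4 were at 25.5, 24.5 and 29.9 against 27.9, 23.4 and 21.3. At ZT12 they were at 46.9, 49.3 and 51.2 against 23.0, 21.7 and 24.2, and at ZT20 at 51.3, 55.4 and 60.7 against 35.0, 23.6 and 24.2. All 3 libraries of the knock out lay above all 3 of wild type at 4 of 6 times. The share of all tested genes that separated as often was not computed, here or for the other separations of libraries named. The Guca2b rhythm of the knock out had an amplitude of 0.46 ± 0.09 and peaked at ZT17.6 (adjusted p = 4.04e-04), but its difference from wild type did not pass (0.31 ± 0.13, adjusted p = 0.139). Without replicate number 2 the Guca2b rhythm (0.34) and the rhythm difference of Gucy2c (0.74) no longer passed. For Guca2a neither the rhythm in the knock out (0.30 ± 0.13, adjusted p = 0.141) nor its difference from wild type (0.37 ± 0.19, adjusted p = 0.243) passed. That rhythm did pass in FPKM as deposited (1.15, adjusted p = 6.57e-10), under quantile normalization (0.53, adjusted p = 2.36e-06), with array weights (0.39, adjusted p = 8.15e-05), with the length score (0.54, adjusted p = 6.17e-05) and without replicate number 3 (0.39, adjusted p = 0.0435).

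Scale factor and length score moved with these results. The 9 Bmal1 knock out libraries with a scale factor under 0.6 had Gucy2c between 19.2 and 26.4 (median 23.2), and the other 9 had it between 28.5 and 68.3 (median 62.1), with no overlap. Guca2b was at 46.9 to 60.7 (median 52.05) in the former and 21.2 to 55.4 (median 45.1) in the latter. With these libraries and the low ones of high salt night fed left out and time fitted by cosine and sine terms, the differences were -0.86 ± 0.19 for Gucy2c and 0.84 ± 0.18 for Guca2b, and both still passed. The Gucy2c rhythm and its difference from wild type, and the Guca2b rhythm, no longer passed without them (0.79, 0.79 and 0.69). The libraries left out include every one of Bmal1 knock out at ZT12 and ZT16. Both the levels and the amplitudes of this fit thus have no knock out values behind them at those times. When the length score entered the fit as a covariate, the level differences were -0.40 ± 0.11 for Gucy2c, which passed, 0.14 ± 0.07 for Guca2b, which did not, and -0.77 ± 0.13 for Guca2a, which did. With both changes, a combination chosen after seeing the data, Gucy2c was at -0.14 ± 0.14 and Guca2b at 0.063 ± 0.10, and neither passed. Short messages had a higher median as a class: the 415 tested genes with transcripts of up to 800 bases had a median of 0.45 and a 10th to 90th percentile range of -0.36 to 1.32, which holds Guca2b. The 1878 genes of 3500 to 4500 bases had a median of -0.24 and a 10th to 90th percentile range of -0.77 to 0.37, which does not hold the -0.96 of Gucy2c.

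The MR knock out was compared with the same wild-type libraries, so that both genotype contrasts share their controls. Here both peptide messages were higher and the receptor lower. Guca2a was at 1011 in the lowest, 2805 in the median and 7043 in the highest library, against 1677, 2203.5 and 3611 in wild type. It rose by 0.41 ± 0.13 (adjusted p = 0.00818), or 32.5%, with a higher mean at 5 of 6 times and complete separation at 3. As above, the share of all genes that separated as often was not computed. Guca2b was at 19.4, 38.5 and 51.8 against 20.2, 25.4 and 37.9, and rose by 0.51 ± 0.09 (adjusted p = 1.83e-05), or 42.5%, at 6 of 6 times. Gucy2c was at 30.8, 54.2 and 71.4 against 41.1, 64.5 and 85.6, and fell by 0.31 ± 0.11 (adjusted p = 0.0117), or to 0.805 of the wild-type level, at 6 of 6 times. In this contrast 66.0% of all genes passed, 24.7% upwards and 41.3% downwards. Tested genes with transcripts of up to 800 bases had a 10th to 90th percentile range of -0.28 to 0.84, which holds Guca2a and Guca2b. Those of 3500 to 4500 bases had a range of -0.48 to 0.22, which holds Gucy2c.

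The widest spread was in Guca2a. At ZT12 the 3 libraries of MR knock out were at 7043, 3167 and 3184, and at ZT0 at 2637, 3568 and 1011. The Guca2a rise no longer passed without replicate number 1 (0.28) or number 2 (0.40), and the Gucy2c fall no longer passed without number 1 (-0.26) or number 2 (-0.31). With the length score as a covariate Guca2a was at -0.025 ± 0.10 and Gucy2c at 0.030 ± 0.09, both past 0 to the other side and not called, while Guca2b stayed called at 0.16 ± 0.05. No rhythm of the 3 genes passed in MR knock out (21.7% of all genes did), the nearest being Guca2b with 0.29 ± 0.09 around ZT10.1 (adjusted p = 0.0578). The Guca2b rhythm passed with array weights (0.18, adjusted p = 0.00203), with the length score, with or without the low-scale libraries (0.19), and without the third wild-type library of ZT8 (0.29, adjusted p = 0.0420). That of Gucy2c passed with array weights (0.28, adjusted p = 1.06e-05) and with the length score when low-scale libraries were left out (0.22, adjusted p = 0.0330). No rhythm difference passed either, where only 0.835% of all genes did. That for Guca2b was 0.43 ± 0.13 (adjusted p = 0.246).

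Markers of gut region moved in both knock outs, in which 80.3% (49.2% downwards) and 66.0% (41.3% downwards) of all tested genes passed. All 4 tested distal colon Hox genes fell in each: Hoxb13 by 0.90 ± 0.14 and 0.82 ± 0.14, and Hoxd13 by 0.80 ± 0.14 and 1.21 ± 0.14, in Bmal1 and MR knock out. The summed level of the 5 Hox markers was 115 to 199.8 in wild type, 58.4 to 121 in Bmal1 knock out and 29.1 to 158 in MR knock out. Of the small intestinal markers, Fabp2, an intestinal fatty acid binding protein, rose by 1.04 ± 0.15 and 1.49 ± 0.15. Of 5 tested markers 2 rose and 1 fell in Bmal1 knock out and 2 rose in MR knock out. The 8 small intestinal markers summed to 191 to 546 in wild type, 444 to 903 in Bmal1 knock out and 194 to 1678 in MR knock out. Most of the Hox sum was Hoxb13, with a mean of 120 over all libraries, the next being Hoxd13 at 9.64. In the small intestinal sum most was Fabp2 at 442, the next being Fabp6 at 52.6. Among 9 surface colonocyte markers 1 rose and 6 fell in Bmal1 knock out, with sums of 2723 to 9723 against 3927 to 9118 in wild type, and 4 rose and 2 fell in MR knock out (3963 to 13308). Their part in the levels of the guanylin genes was not tested.

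**Figure D2:**
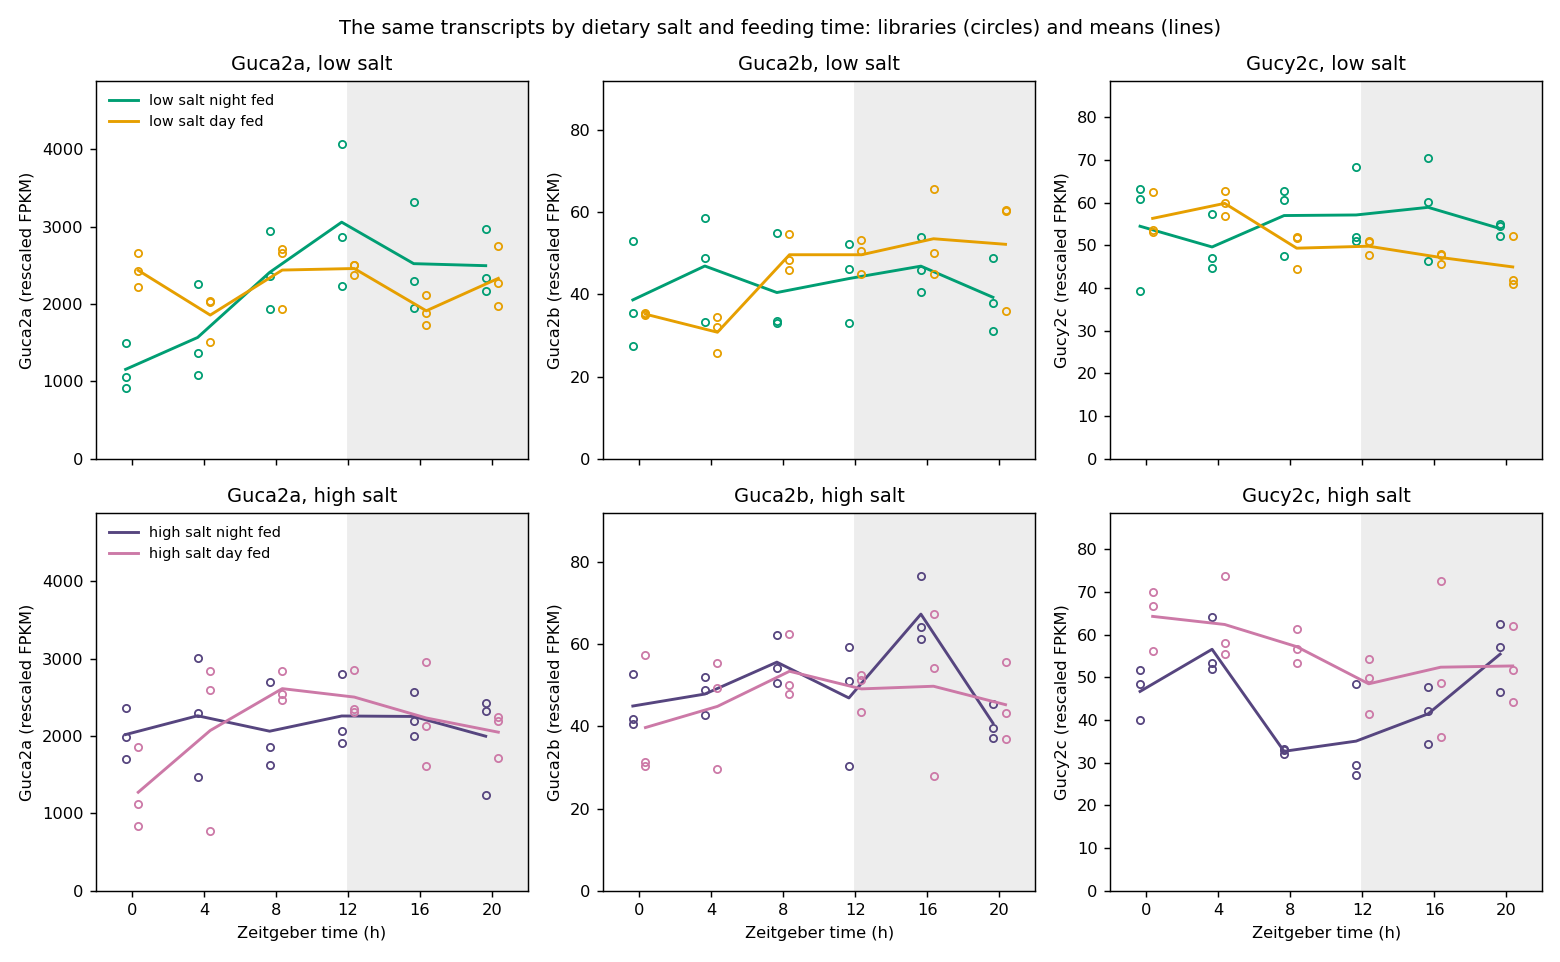
Rescaled FPKM of the 3 genes against zeitgeber time on low salt (top) and high salt (bottom), with circles for libraries and lines for the means of 3, night and day fed points shifted sideways and the dark phase in grey. Guca2a on low salt went from a mean of 1154.5 at ZT0 to 3056 at ZT12 when food was given at night and stayed between 1856 and 2457 when it was given by day.

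The feeding groups ask whether dietary salt, and the time at which it is eaten, changes these messages. Averaged over the day, receptor message was lower on high than on low salt when food was given at night, and neither peptide passed. Gucy2c was at 27.1 in the lowest, 47.2 in the median and 64.2 in the highest library of high salt night fed, against 39.4, 54.8 and 70.4 in low salt night fed. It fell by 0.33 ± 0.07 (adjusted p = 6.79e-04), or to 0.795 of the low-salt level, with a lower mean at 4 of 6 times. The libraries were separate at ZT8, where high salt had 32.0, 32.9 and 33.2 and low salt 60.6, 62.8 and 47.5. Guca2b was higher in mean at 6 of 6 times but its difference of 0.25 ± 0.11 did not pass (adjusted p = 0.0680), and Guca2a differed by 0.035 ± 0.13 (adjusted p = 0.849, interval -0.22 to 0.29). In this contrast 35.0% of all genes passed.

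In mice fed by day, none of the 3 genes differed in level with salt, where 14.8% of all genes did. The differences were -0.15 ± 0.13 for Guca2a (adjusted p = 0.456, interval -0.41 to 0.11), 0.055 ± 0.11 for Guca2b (0.778, -0.16 to 0.27) and 0.12 ± 0.07 for Gucy2c (0.295, -0.030 to 0.27). The effect of salt on Gucy2c therefore differed with feeding time, with an interaction of 0.45 ± 0.11 (adjusted p = 0.00224, 19.7% of all genes called). The interaction was -0.19 ± 0.18 for Guca2a (adjusted p = 0.451) and -0.19 ± 0.15 for Guca2b (0.354). On high salt, Gucy2c was higher with day than with night feeding by 0.35 ± 0.07 (adjusted p = 4.82e-04, 27.6% of all genes called), or 27.5%, at 5 of 6 times. Guca2a (-0.073 ± 0.13, adjusted p = 0.694) and Guca2b (-0.12 ± 0.11, 0.431) did not pass there. On low salt no level of the 3 passed for the time of feeding, where 3.33% of all genes passed: Guca2a was at 0.11 ± 0.13 (0.660), Guca2b at 0.074 ± 0.11 (0.746) and Gucy2c at -0.10 ± 0.07 (0.493). These contrasts share groups with one another and are not independent.

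The 5 high salt night fed libraries with a scale factor under 0.6, all at ZT8 or ZT12, had Gucy2c between 27.1 and 33.2, below all of the other 13 (34.4 to 64.2). Without them and those of Bmal1 knock out, and with cosine and sine terms for time, Gucy2c was at -0.15 ± 0.09 for salt by night, 0.17 ± 0.09 for day against night on high salt and 0.27 ± 0.11 for the interaction, and none of these passed. The interaction was also lost without replicate number 1 (0.38, adjusted p = 0.0701). With the length score as a covariate the 3 differences were -0.21 ± 0.05, 0.24 ± 0.05 and 0.30 ± 0.07, and all passed. Distal colon Hox markers moved with salt as well: 3 of 4 fell with high salt by night, where 19.6% of all genes fell, and 3 of 4 by day, where 7.05% did, with sums of 78.7 to 222 and 56.0 to 173, against 119 to 261 and 132 to 279.6 on low salt. Their part in the Gucy2c difference was not tested.

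Guanylin message varied over the day in 2 of the 4 feeding groups. In low salt night fed, Guca2a was at 1059, 1497 and 907 at ZT0, at 1364, 2252 and 1084 at ZT4 and at 1928, 2355 and 2939 at ZT8. It was at 4066, 2868 and 2234 at ZT12, at 1945, 2293 and 3322 at ZT16 and at 2970.4, 2172 and 2340.1 at ZT20. The 3 libraries at ZT0 were all below the 12 libraries of ZT8 to ZT20. The fitted amplitude was 0.62 ± 0.13 with a peak at ZT13.4, a fold of 2.35 from trough to peak (adjusted p = 0.00142, 22.6% of all genes called). In high salt day fed, Guca2a was lowest at ZT0 as well (839, 1859.5 and 1121), with 775, 2594 and 2845 at ZT4 and 2537, 2833 and 2466 at ZT8. Its amplitude was 0.46 ± 0.13 around ZT11.8 (adjusted p = 0.0195, 31.6% called).

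In the other feeding groups the guanylin rhythm did not pass. It had an amplitude of 0.025 ± 0.13 in low salt day fed (adjusted p = 0.987), where 42.2% of all genes were rhythmic, and of 0.072 ± 0.13 in high salt night fed (adjusted p = 0.879), where 57.0% were. The latter passed in FPKM as deposited (0.61, adjusted p = 1.46e-04) and under quantile normalization (0.33, adjusted p = 0.0290), so that the count of 2 groups holds for the rescaled values. At ZT0 the low salt day fed libraries (2426, 2214 and 2660.1) all lay above those of low salt night fed. The rhythm of Guca2a differed between day and night feeding on low salt by 0.59 ± 0.18 (adjusted p = 0.0271), where 38.6% of all genes passed. On high salt the difference was 0.38 ± 0.18 (adjusted p = 0.216, 32.5% called). The effect of salt on the Guca2a rhythm was 0.55 ± 0.18 by night (adjusted p = 0.0854, 12.3% called) and 0.43 ± 0.18 by day (adjusted p = 0.233, 11.3% called). These effects differed from each other, with an interaction of 0.96 ± 0.26 (adjusted p = 0.0400, 6.21% called).

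The Guca2a calls varied in how firmly they held. The rhythm in low salt night fed kept its call in all settings tried except without replicate number 3 (0.51). The rhythm in high salt day fed lost its call without replicate number 1 (0.39) or 3 (0.51), in FPKM as deposited (0.34), under quantile normalization (0.26) and with the length score fitted, with or without the low-scale libraries (0.30). It also lost it in a fit of the compared conditions alone (0.46). The difference between day and night feeding on low salt lost its call without any 1 of the 3 replicate numbers (0.48 to 0.79), and so did the interaction (0.86 to 1.28).

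Uroguanylin and the receptor had other daily courses. Guca2b was rhythmic in low salt day fed, where its libraries were at 34.6, 32.1 and 25.6 at ZT4 and at 50.03, 65.5 and 45.01 at ZT16. Its amplitude was 0.37 ± 0.11 with a peak at ZT14.6 (adjusted p = 0.0172). This call was lost without any 1 replicate number (0.35 to 0.40) and once the length score was fitted without the low-scale libraries (0.16). Its amplitude was 0.078 ± 0.11 in low salt night fed (adjusted p = 0.835), 0.16 ± 0.11 on high salt by night (0.396) and 0.18 ± 0.11 by day (0.330). With the length score all 3 passed (0.12, 0.16 and 0.21), the night group on high salt also passed in FPKM as deposited (0.54), and the day group with array weights (0.30) and with the length score when low-scale libraries were left out (0.20). No rhythm difference of Guca2b between feeding groups passed (adjusted p from 0.192 to 0.952).

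Gucy2c was rhythmic in high salt night fed, with an amplitude of 0.36 ± 0.07 and a peak at ZT23.1 (adjusted p = 3.75e-04). Its libraries there were at 52.1, 64.2 and 53.5 at ZT4, 32.0, 32.9 and 33.2 at ZT8 and 46.6, 57.2 and 62.5 at ZT20. The trough coincided with the low-scale libraries, and without those the amplitude was 0.13 and did not pass, nor did it without replicate number 2 (0.27). Its rhythm differed from that of low salt night fed by 0.43 ± 0.11 (adjusted p = 0.0158), a call that was lost without those libraries (0.22), without replicate number 2 (0.25) or 3 (0.42), and in a fit of the compared conditions alone (0.43). The Gucy2c amplitude was 0.092 ± 0.07 in low salt night fed (adjusted p = 0.607), 0.17 ± 0.07 in low salt day fed (0.156) and 0.20 ± 0.07 in high salt day fed (0.0775). Low salt night fed passed with the length score (0.14), low salt day fed with array weights (0.19) and in a fit of the compared conditions alone (0.17), and high salt day fed with array weights (0.21) and in FPKM as deposited (0.42). Its other rhythm differences between feeding groups did not pass (adjusted p from 0.0963 to 0.863).

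**Figure D3:**
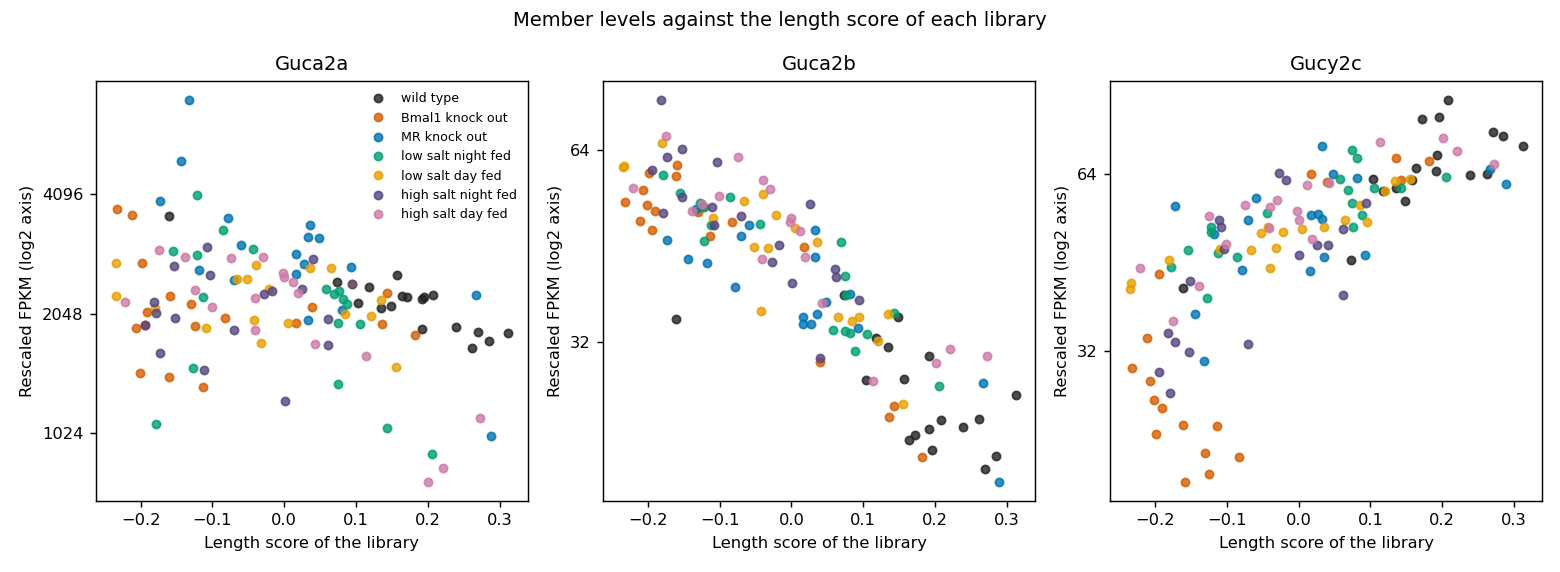
Rescaled FPKM on a log2 axis against the length score of each library, coloured by condition, for the 3 genes. Guca2b falls and Gucy2c rises with the length score across conditions (Pearson r of -0.88 and 0.74), and Guca2a varies more around a weaker fall (-0.36).

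Across libraries the short uroguanylin message and the long receptor message tracked the length score in opposite directions. Over all libraries Pearson's r with the length score was -0.88 for log2 Guca2b, 0.74 for Gucy2c and -0.36 for Guca2a. Within single conditions it ran from -0.93 to -0.66 for Guca2b, from 0.53 to 0.93 for Gucy2c and from -0.90 to 0.044 for Guca2a. Gucy2c also tracked the scale factor (0.88). Guca2a correlated with Guca2b at 0.27 and with Gucy2c at -0.14, and Guca2b with Gucy2c at -0.65. These values describe libraries that share normalization and length score, and the members themselves enter the score.

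The genes most like each member over the 42 means of condition and time were named by the highest Pearson r of log2 level. For Guca2a these were Ccs (0.78), Fam189a2 (0.77), Dpep1 (0.75), Plekhg6 (0.73) and Ethe1 (0.73), and the least like were Zcchc8 (-0.69), Tnf (-0.69) and Naip5 (-0.68). For Guca2b they were Polr2i (0.91), Psenen (0.90), Smdt1 (0.90), Smyd2 (0.89) and Stra13 (0.89), and at the other end Gosr1 (-0.92), Ikbkg (-0.91) and Atl3 (-0.91). Of these, Polr2i, Psenen and Smdt1 have transcripts of 708 to 819 bases, Smyd2 of 1708, and the 3 at the other end of 4289 to 7540 bases. For Gucy2c they were Ctage5, AU040320, Atf6, F2rl1 and Srpr (0.94 to 0.95), and at the other end Arpp19, Clpp and Uqcc2 (each -0.95). Here AU040320, Atf6, F2rl1 and Srpr have transcripts of 2741 to 7246 bases and Clpp and Uqcc2 of 983 and 649, but Arpp19, at 4046 bases about as long as Gucy2c, also stood at the other end. Between members r was 0.048 for Guca2a and Guca2b, 0.096 for Guca2a and Gucy2c, and -0.63 for Guca2b and Gucy2c.

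**Figure D4:**
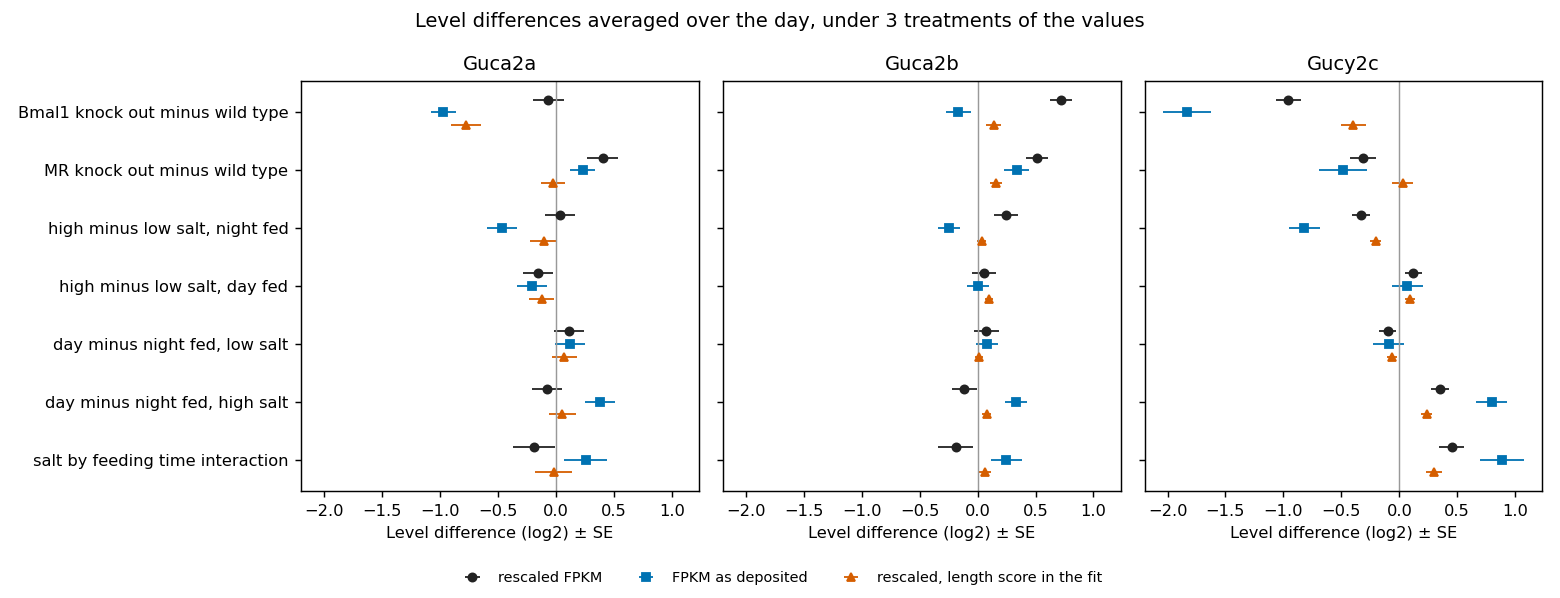
Level differences of the 3 genes (log2, averaged over 6 times, bars of 1 SE) in the 7 contrasts, from rescaled FPKM (circles), FPKM as deposited (squares) and rescaled FPKM with the length score in the fit (triangles). For Bmal1 knock out minus wild type, Guca2b goes from 0.72 to -0.17 and 0.14, and Gucy2c stays below 0 at -0.96, -1.84 and -0.40.

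The scaling moved the direction of some peptide results. In FPKM as deposited, the median of all genes for Bmal1 knock out minus wild type was -0.89, and Guca2a was at -0.97, Guca2b at -0.17 and Gucy2c at -1.84. Relative to that median, they stood at -0.076, 0.73 and -0.94, close to the 0.066, 0.85 and -0.83 found relative to the median of the rescaled values. Under quantile normalization Guca2a was at -0.76, Guca2b at 0.67 and Gucy2c at -1.05. Under these 3 scalings Gucy2c was below wild type in Bmal1 knock out, and Guca2b changed direction. Guca2a was below 0 in all 3, but its rescaled difference of -0.067 ± 0.13 did not pass (limma adjusted p = 0.652). It was above 0, and not called, with array weights (0.012) and without the low-scale libraries (0.022).

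Of the targets through which cyclic GMP acts, 6 of 11 listed genes were tested, and all 6 passed in Bmal1 knock out, with 2 up and 4 down (median -0.74 against -0.13 for all genes), where 80.3% of all tested genes passed, 49.2% downwards. Slc26a3, the chloride-bicarbonate exchanger of the colon surface, fell by 1.99 ± 0.13. Slc9a3, the gene for NHE3, fell by 1.92 ± 0.28, Cftr by 1.10 ± 0.17 and Slc9a3r1, the scaffold protein NHERF1, by 0.38 ± 0.07. In MR knock out, where 66.0% of all genes passed, 2 rose and 2 fell (median -0.23 against -0.081): Slc9a3r1 was higher by 0.57 ± 0.07 and Vasp, a substrate of the kinase, by 0.13 ± 0.04, Cftr fell by 0.85 ± 0.17 and Slc26a3 by 0.46 ± 0.13. Slc26a3 is also on the list of surface colonocyte markers.

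Slc9a3 passed in the same level contrasts of the feeding groups as Gucy2c, and in the same directions. With high salt by night, where 35.0% of all genes passed and 19.6% fell, it fell by 1.03 ± 0.27 (adjusted p = 0.00283). That was the single call among the 6 genes. On high salt it was higher by 1.33 ± 0.27 with day than with night feeding (adjusted p = 2.65e-04, 27.6% of all genes called). Its interaction was 1.33 ± 0.38 (adjusted p = 0.0127, 19.7% called). These Slc9a3 values, like those of all listed genes, come from the fit reported, which holds all libraries. They were not examined without the low-scale libraries, where these Gucy2c calls were lost, or with the length score. With high salt by day, where 7.79% of all genes rose, 2 of 6 did, Prkg2, the gene for the membrane-bound kinase, by 0.43 ± 0.10 and Slc9a3r1 by 0.18 ± 0.06. On low salt, with day feeding, where 2.29% of all genes fell, Prkg2 fell by 0.45 ± 0.10 and Vasp by 0.13 ± 0.04.

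Of 12 genes for breakdown and export of cyclic GMP, 8 were tested. In Bmal1 knock out 1 rose and 5 fell (median -0.32), and in MR knock out 1 rose and 4 fell (median -0.16). With 80.3% and 66.0% of all tested genes called, these shares are near the background. The riser in both was Pde9a, a phosphodiesterase selective for cyclic GMP and the most abundant of the list in wild type at 43.9 ± 7.45, with 0.67 ± 0.09 and 0.59 ± 0.09. Abcc4, a pump that exports cyclic nucleotides, fell by 0.91 ± 0.10 and 0.79 ± 0.10. With high salt 1 rose and 1 fell by night, and 1 rose by day (35.0% and 14.8% of all genes passed): Abcc5, a related pump, was higher by 0.25 ± 0.08 and 0.32 ± 0.08. None passed for feeding time on low salt or for the interaction, where 3.33% and 19.7% of all genes passed. For feeding time on high salt, where 27.6% passed and 14.7% rose, 1 rose (Pde1b, 0.17 ± 0.06).

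No other guanylate cyclase was measured at a level that could be tested. Of 15 listed symbols for cyclases, natriuretic peptides and their receptors, 13 were in the tables and none passed the filter. Together these summed to at most 0.616 in any library. Gucy2c was thus the one guanylate cyclase gene examined whose message could be tested in these samples. Of 13 transcription factors of the intestinal epithelium 12 were tested, with 3 up and 7 down in Bmal1 knock out (median -0.35) and 2 up and 6 down in MR knock out (median -0.13), again near the 80.3% and 66.0% called among all tested genes. Cdx2, a factor that sets intestinal identity, rose by 0.63 ± 0.08 in Bmal1 knock out and by 0.62 ± 0.08 in MR knock out. Hnf4a, a regulator of epithelial differentiation, fell by 0.47 ± 0.06 in Bmal1 knock out, and Klf4, a factor of differentiated and goblet cells, by 0.59 ± 0.08. In MR knock out Klf5, a factor of proliferating crypt cells, fell by 0.68 ± 0.11, and Atoh1, which directs cells to the secretory fate, by 0.60 ± 0.12. With high salt by night, where 35.0% of all genes passed, 2 of the 12 rose (Spdef and Cdx2, the latter by 0.23 ± 0.06) and 1 fell (Hnf4a). With high salt by day, where 14.8% passed, 2 rose (Cdx2 by 0.34 ± 0.06 and Atoh1 by 0.40 ± 0.09) and 1 fell (Cdx1).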

How the data were processed

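Poly(A) RNA of mouse colon was sequenced from libraries of the TruSeq stranded kit, per the labels. Reads were aligned with TopHat2 2.1.1 to mm10 and quantified with Cufflinks 2.2.1, per the submitters' processing notes. The deposited tables, 1 per condition, hold FPKM made by the authors; the unit was read from Cufflinks being the quantifier named and from the values. The sources used here do not give the annotation or say whether the tables were normalized together, so level differences cross tables and rhythms lie within one. Sequencing depth is unknown, and no counting interval was computed; relative depth estimated from low values ran from 0.624 to 1.32. The sum of FPKM ran from 158029 to 660895.

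Libraries were rescaled by median-of-ratios factors over the 6966 rows with FPKM of at least 1 in every library, and analysed as log2(rescaled FPKM + 0.5). A fold is thus on that scale, which understates changes of low genes. Tests covered the 11377 rows whose mean reached 1 in some condition. limma 3.58.1 in R 4.3.3 (lmFit, eBayes with trend and robust) was fitted to 54 genotype libraries (36 residual degrees of freedom) and 72 feeding libraries (48), with 1 mean per condition and time. Level is the contrast averaged over 6 times, rhythm a 24 h cosine and sine F test. All p-values are 2-sided, adjusted by Benjamini-Hochberg over all tested rows, threshold 0.05, and ± is the SE unless SD is named. Transcript lengths from GENCODE vM21 covered 96.2% of tested rows. Guca2a and Guca2b are single rows with no overlap, and the sources used here do not say whether counting used strand. No 2 libraries were identical. The fits were tested on simulated data with independent noise for each gene and library. Those data held no shared effect of scale factor or length score, so they cannot show how such effects move calls.

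Groups came from sample titles. Alternatives were other pseudocounts (0.1 and 1) and filters, FPKM as deposited, quantile normalization, array weights, a replicate block, leaving out replicate numbers, low-scale libraries or conditions not compared, and the length score. The members, lists and tests were chosen with earlier results of these data known. From each list up to 4 tested members with the smallest adjusted p are named, with the 5 most and 3 least like genes for each member. Markers of goblet, enteroendocrine, tuft, crypt base, immune and epithelial cells were also listed. In Bmal1 and MR knock out, where 80.3% and 66.0% of all tested genes passed, goblet markers gave 4 up and 1 down, then 2 and 2, of 8. Enteroendocrine markers gave 2 and 4, then 0 and 5, of 7. Tuft markers gave 2 and 0, then 3 and 0, of 3. Crypt base markers gave 1 and 5 in both, of 6. Immune markers gave 0 and 1, then 2 and 0, of 3. Colon epithelial markers gave 1 and 4, then 2 and 2, of 6.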

Additional observations from a re-analysis of the deposited data

Results flagged for a closer look

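The effect of salt on the daily course of Guca2a passed the test for a difference between mice fed by night and by day, close to the threshold. The test of that difference, the salt by feeding time interaction of the 24 h terms in limma, gave 0.96 ± 0.26 (SE, log2) with an adjusted p of 0.0400. The effect of salt was 0.55 ± 0.18 by night and 0.43 ± 0.18 by day, neither of which passed by itself. The call was lost with no filter on low values (adjusted p = 0.0783), with the replicate block (0.0585), without the low-scale libraries (0.239) and without any 1 replicate number (0.0667 to 0.209).

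The effect of salt on the level of Gucy2c also passed the test for a difference with feeding time. The interaction was 0.45 ± 0.11 (adjusted p = 0.00224), from -0.33 ± 0.07 by night and 0.12 ± 0.07 by day. Without the 14 low-scale libraries it was 0.27 and did not pass (adjusted p = 0.169), nor did it without replicate number 1 (0.38, adjusted p = 0.0701) or with the length score added to the former setting (0.16, adjusted p = 0.259).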

How the results depend on the processing

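Other pseudocounts and a stricter filter on low values changed no call of a level or rhythm difference. The Bmal1 knock out level of Gucy2c stayed below wild type in all settings. Values below are log2 differences in level, or lengths of rhythm differences.

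With no filter on low values, calls were lost for the Guca2a rhythm difference of feeding time on low salt (0.59) and for its interaction (0.96). A fit of the compared conditions alone lost the Gucy2c rhythm difference of salt by night (0.43). The labels do not say whether same-numbered libraries form a pairing, and the fit reported treated them as unpaired. Within conditions the median correlation of their deviations ran from -0.16 to 0.22, with single pairs from -0.70 to 0.66. Such correlations cannot exclude a shared batch. With a replicate block, the Guca2a rhythm interaction (0.96) lost its call and no other level or rhythm difference changed its call.

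In FPKM as deposited, level directions reversed for Guca2b in Bmal1 knock out (-0.17), for salt by night (Guca2a -0.46, Guca2b -0.25), for day feeding on high salt (Guca2a 0.38, Guca2b 0.33) and for the interaction (Guca2a 0.26, Guca2b 0.25). The medians of all genes moved there to -0.89 for Bmal1 knock out, -0.24 for MR knock out, -0.45 for salt by night, 0.41 for day feeding on high salt and 0.42 for the interaction, and 3.75% of calls in Bmal1 knock out were upwards against 38.7% in rescaled values. Calls were gained for Guca2a in Bmal1 knock out in level (-0.97) and rhythm (1.15), for Guca2b in rhythm (0.52), and for rhythm differences of salt by night (Guca2a 1.11, Guca2b 0.59), salt by day (Guca2b 0.60), day feeding on high salt (Guca2a 0.95, Guca2b 0.69, Gucy2c 0.91) and the interaction (Guca2b 0.86, Gucy2c 0.95). Calls were lost for the Guca2a level in MR knock out (0.23) and its rhythm difference of feeding time on low salt (0.57).

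Under quantile normalization Guca2a reversed for salt by night (-0.21), day feeding on high salt (0.24) and the interaction (0.16), gained calls in Bmal1 knock out (level -0.76, rhythm 0.44) and in rhythm for salt by night (0.79) and day feeding on high salt (0.59), and lost its MR knock out call (0.076).

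With array weights Guca2a turned to 0.012 in Bmal1 knock out. Calls were gained for rhythm differences in Bmal1 knock out (Guca2a 0.41, Guca2b 0.26), MR knock out (Guca2b 0.32), salt by night (Guca2a 0.62), salt by day (Guca2a 0.58, Guca2b 0.37, Gucy2c 0.16), day feeding on low salt (Guca2b 0.34, Gucy2c 0.24) and on high salt (Guca2a 0.58, Gucy2c 0.35) and the interaction (Guca2b 0.38, Gucy2c 0.34). Levels gained calls for salt by night (Guca2b 0.33), salt by day (Gucy2c 0.12), day feeding on low salt (Guca2b 0.14, Gucy2c -0.15) and on high salt (Guca2b -0.14) and the interaction (Guca2a -0.27, Guca2b -0.27).

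With the length score as a covariate, reversed levels were Guca2a and Gucy2c in MR knock out (-0.025 and 0.030), Guca2a for salt by night (-0.11), Guca2a and Guca2b for day feeding on high salt (0.057 and 0.079) and Guca2b for the interaction (0.065). Guca2b in Bmal1 knock out lost its call (0.14). Guca2a there gained one in level (-0.77) and rhythm (0.56), as did Guca2b for salt by day in level (0.099). Rhythm differences gained calls for Guca2b in MR knock out (0.34), Guca2a for salt by night (0.67), Guca2b for salt by day (0.21), Guca2b for day feeding on low salt (0.28) and high salt (0.29), and Gucy2c for day feeding on high salt (0.19) and the interaction (0.35).

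Without libraries of low scale factor, Guca2a in Bmal1 knock out turned to 0.022. That setting had no Bmal1 knock out library at ZT12 or ZT16. Calls were lost for the Gucy2c rhythm difference in Bmal1 knock out (0.79), Gucy2c for salt by night in level (-0.15) and rhythm (0.22), its level for day feeding on high salt (0.17) and interaction (0.27), and the Guca2a rhythm interaction (0.84). The median log2 ratio of Guca2b to Guca2a in Bmal1 knock out moved from -5.37 to -6.15, beside -6.32 in wild type. With the length score added, chosen after seeing the data, Guca2a and Gucy2c in MR knock out (-0.027 and 0.035) and Guca2b for day feeding on high salt (0.095) and the interaction (0.079) reversed. Lost were Guca2b (0.063) and Gucy2c (-0.14) in Bmal1 knock out with the Gucy2c rhythm difference (0.33), and Gucy2c for salt by night (level -0.063, rhythm 0.16), day feeding on high salt (0.091) and interaction (0.16). Gained were Guca2a in Bmal1 knock out (-0.87) and rhythm differences of Guca2b in MR knock out (0.33) and for day feeding on low salt (0.26) and high salt (0.33).

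Leaving out a replicate number or, after seeing the data, 1 of 3 single libraries gave these ranges for level: Guca2a in MR knock out 0.28 to 0.53, Gucy2c in MR knock out -0.37 to -0.25, Guca2a for day feeding on high salt -0.16 to 0.050, Guca2b for that contrast -0.24 to 0.050, Guca2b for salt by day -0.067 to 0.12 and the Gucy2c interaction 0.38 to 0.54. For rhythm differences they were: Gucy2c in Bmal1 knock out 0.63 to 0.87, Guca2a for salt by night 0.50 to 0.69, Gucy2c for salt by night 0.25 to 0.62, Guca2a for day feeding on low salt 0.48 to 0.79, Guca2a and Gucy2c for that on high salt 0.50 to 0.61 and 0.25 to 0.41, and the Guca2a interaction 0.86 to 1.28. The Gucy2c interaction lost its call without replicate number 1. For the rhythms within single conditions, 26 calls were gained and 12 lost over the other settings, and 2 gained and 8 lost when replicates or single libraries were left out. The causes of these changes were not tested.

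Counts of called genes varied by setting: for level, from 989 to 11216 in Bmal1 knock out (9135 reported), 4296 to 9472 in MR knock out (7507), 1546 to 9988 for salt by night (3978), 579 to 5306 by day (1688), 47 to 5348 for day feeding on low salt (379), 806 to 9984 on high salt (3135) and 460 to 8402 for the interaction (2245). For rhythm differences in that order they ran from 266 to 9911 (3546), 0 to 6093 (95), 0 to 9579 (1398), 403 to 8503 (1285), 1503 to 9505 (4388), 1549 to 9868 (3692) and 108 to 7275 (707). For rhythms they ran from 375 to 7444 in wild type (2011), 204 to 10842 in Bmal1 knock out (6450), 337 to 8014 in MR knock out (2470), 988 to 9225 in low salt night fed (2573), 869 to 8861 in low salt day fed (4798), 866 to 10380 in high salt night fed (6490) and 371 to 9598 in high salt day fed (3599). Depth is unknown, so that its limit on these levels was not computed.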
